A study of Mus musculus with 20 samples.

Results

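Translation initiation and elongation factors are the proteins that load ribosomes onto mRNA, find the start codon and move the ribosome along the message. The 33 genes described here were taken by symbol from a list of such factors, and each was represented by its brightest single-gene probe set over all samples. Of the 33, 29 had such a probe set and all 29 passed the filter on dim values, within a fit of 11200 genes. For Eif2s1, Eif3g, Eif4g1 and Eef1g the annotation listed no probe set with a single gene, and these 4 were not analysed here. RNA came from gastrocnemius, which is a muscle of the calf, of mice that received the anti-myostatin antibody JA16 (10 samples) or saline (10 samples). JA16 was given into the peritoneum at 0.12 mg per g body weight on day 1 and at 0.09 mg per g on day 3, and the muscles were taken on day 5. Both groups were injected, and the comparison group received saline rather than another antibody. Strain, sex and age were not given in the labels, nor was it stated that each sample came from its own mouse, so the p-values reflect sample-to-sample spread that may be technical in part. Within every pair the saline sample carries the lower array number in the labels, so array order and treatment cannot be told apart.

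Initiation starts when eIF2, carrying GTP and the initiator tRNA, joins the small ribosomal subunit, and eIF2B recharges eIF2 with GTP after each round. The eIF4 factors bind the mRNA cap and unwind the leader, eIF3 is the large scaffold on the small subunit, eIF1A and eIF5 act during scanning for the start codon, and eIF5B joins the large subunit. During elongation eEF1A delivers charged tRNAs, eEF1B, built from the products of Eef1b2, Eef1d and Eef1g, recharges eEF1A, and eEF2 moves the ribosome by a codon. Myostatin restrains muscle growth, and muscle size depends in part on the rate of protein synthesis. Arrays measure mRNA level and not the phosphorylation through which many of these factors are controlled.

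Many elongation factor mRNAs, with those of eIF3e, eIF3f, eIF3h and eIF4B, are known from human cells as TOP mRNAs, which begin with a C followed by a run of pyrimidines and whose translation depends on mTOR. The 6 of 10 such members found in the table of gene starts are shown so that a reader can look for such a run near the annotated start. The family shares the element with ribosomal protein genes. Each window holds the 15 bases before and the 15 bases from the annotated start on (RefSeq, build GRCm38.p6, gene strand, 5′ to 3′). Capitals mark the longest run of a C followed directly by at least 4 letters that are each C or T, searched on the gene strand only.
Eif4b, chr15:102073758-102073787, plus strand: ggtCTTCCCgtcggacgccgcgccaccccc
Eif3f, chr7:108934400-108934429, plus strand: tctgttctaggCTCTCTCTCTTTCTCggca
Eef1a1, chr9:78481710-78481739, minus strand: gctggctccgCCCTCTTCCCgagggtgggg
Eef1a2, chr2:181157001-181157030, minus strand: tCTCTCCTggtctgcgttctcgctcactgg
Eef1b2, chr1:63176816-63176845, plus strand: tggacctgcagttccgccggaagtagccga
Eef2, chr10:81176616-81176645, plus strand: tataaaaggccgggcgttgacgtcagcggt
Such a run lay in a window of 4 of these 6 genes and of 5 of the other 19 members with a window. Counted by window, 9 of 31 member windows held such a run, against 36.4% of all 32851 windows of the same length. By gene, where any window counts, it was present for 38 of 58 ribosomal protein genes. In Eif3f and Eef1a1 the run spans the annotated start, while in Eif4b and Eef1a2 it ends before that start and so lies outside the annotated mRNA. A run anywhere in the window is therefore not the same as an mRNA that begins with it. The annotated starts need not be the bases where transcription begins in muscle, and 8 of the 33 members had no window.

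Values are MAS5 intensities (linear scale), and all 20 arrays had been scaled to a trimmed mean of 500.0, with array medians between 38.9 and 77.1. The arrays fell into sets by the beta-actin control ratio, the 3′ signal over the 5′ signal. On the log2 scale it was 0.48 to 0.64 in the low-ratio set (replicates 7 to 10, 8 samples) and 1.33 to 1.84 in the high-ratio set (replicates 1 to 6, 12 samples), whichever the treatment. For the Gapdh control the same log2 ratio was 0.18 to 0.32 in the low-ratio set and 0.21 to 0.41 in the high-ratio set, which overlap. Levels of different probe sets cannot be set against each other. All 16 skeletal muscle markers listed, among them Acta1, Ckm and Myh4, passed the filter, with a mean intensity of 13330 or more. Their summed intensity was 292839 to 420455 in JA16 and 278922 to 359432 in saline samples. Of the 16, 13 were higher and 3 lower in JA16, with a median log2 difference of 0.048. Markers of other cells were lower in JA16 for 6 of 6 endothelial, 6 of 6 nerve, 6 of 7 fibroblast, 3 of 5 leukocyte and 3 of 3 adipocyte markers. None was called in limma (0 in each list), against 0.277% of all genes. An unadjusted p under 0.05 was found for 1 of 6 endothelial, 5 of 6 nerve and 1 of 7 fibroblast markers, against 16.2% of all genes. These markers were lower in JA16, as were 8.76% of all genes at that limit. Nerve markers summed to 6529 to 18250 in JA16 and 9222 to 18784 in saline samples, and S100b was the dimmest, with a mean of 89.4. All 8 slow fibre markers were lower in JA16, with 0 at an unadjusted p under 0.05, and summed to 6865 to 130755 in JA16 and 47437 to 110040 in saline samples. The part of these cells in the results on the factors was not tested. In whole muscle, fewer cells of a type and less RNA per cell cannot be told apart.

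No translation factor passed the test. With same-numbered samples paired, 0 of 29 members had an adjusted p under 0.05 (limma with the replicate number as a block, Benjamini-Hochberg over 11200 genes), and 0.277% of all genes did. Each difference is a mean log2 ratio, JA16 over saline, given with its standard error (SE), and n = 10 per group. At an unadjusted p under 0.05 there were 6 of 29 members (20.7%), 5 higher and 1 lower in JA16, against 16.2% of all genes. By direction, 7.49% of all genes were higher and 8.76% lower at that limit. Without the pairing 1 of 29 members, Eif4b, had an unadjusted p under 0.05, against 2.65% of all genes, and 0 passed the adjusted threshold in limma, which 0.0357% of all genes passed. The JA16 and saline samples overlapped in all 29 genes, as they did in all 11200 (0% without overlap).

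The differences were small. The median over the 29 members was 0.057, and 17 were higher and 12 lower in JA16, beside a median of -0.016 over all genes, of which 45.8% were higher. The largest size was 0.20. In the fit with the block, the 95% interval of the difference lay within a change of 1.25-fold either way for 24 of 29 members. The exceptions were Eif1a, Eif5, Eif5b, Eif2b3 and Eif2b4. This count has no share over all genes beside it, and it holds for the paired fit only. Without the block the SE ran from 0.061 (Eif5a) to 0.38 (Eif3d), against 0.038 (Eif4h) to 0.14 (Eif5b) with it. The same direction in at least 8 of 10 pairs was seen for 8 members, 7 higher and 1 lower in JA16, against 21.2% of all genes (10.5% higher, 10.7% lower). The median moved with the scaling. It was 0.0064 with quantile normalization, beside 0.0046 over all genes, and 0.13 with centred array medians, beside 0.054 over all genes. Some probe set names end in _a_at, _s_at or _x_at, here called a lettered ending. Whether probe sets with such an ending match other genes was not tested. Over the 21 members that have a probe set without a lettered ending the median was -0.0027, beside -0.030 over all genes.

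**Figure D1:**
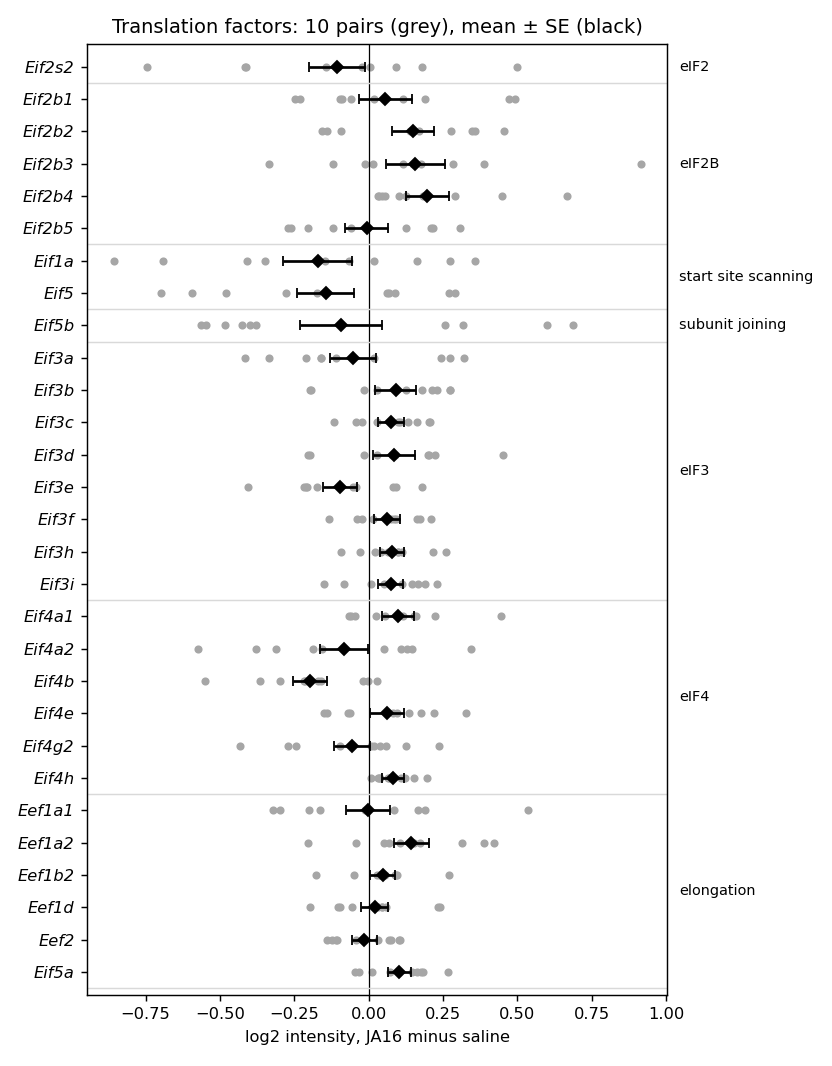
Log2 intensity in JA16 minus saline (x axis) for the 29 measured factors, grouped by role. Grey points are the 10 pairs of same-numbered samples and black diamonds the mean with its SE from limma; the means lie between -0.20 (Eif4b) and 0.20 (Eif2b4), and in most genes pairs lie on both sides of 0.

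Among the eIF4 factors, which act at the cap and the leader, Eif4b had the smallest p of all members. Its product stimulates the helicase eIF4A. In JA16 samples its intensity was 5005 at the lowest, 6187 at the median and 7525 at the highest, against 5754, 6978 and 9715 in saline samples. The groups overlapped, with the lowest value in JA16 replicate 5 and the highest in saline replicate 8. It was lower in JA16 in 9 of 10 pairs, by -0.20 (SE 0.057, limma adjusted p = 0.161). Its other probe sets were at -0.19 each (SE 0.0604 and 0.0903), so all 3 had the same direction and size. The difference was -0.19 in the low-ratio set and -0.20 in the high-ratio set. Over the alternatives run it lay between -0.23 (quantile normalization, limma adjusted p = 0.0853) and -0.13 (centred array medians, limma adjusted p = 0.516), and without the block the limma adjusted p was 1.00.

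Eif4h, whose product also stimulates eIF4A, differed in the opposite direction and by less. It ranged from 6372 to 9041 with a median of 7835 in JA16 samples, and from 6045 to 8812 with a median of 7524 in saline samples. These ranges nearly coincide, yet JA16 was the higher sample in 10 of 10 pairs, since the pair differences had a standard deviation of only 0.061, the smallest of the members. The difference was 0.082 (SE 0.038, limma adjusted p = 0.305). With quantile normalization it was 0.030. The brighter probe sets of Eif4h were at 0.095 and 0.093, and a dim one, with a mean intensity of 86.8, was at -0.15. That dim probe set is the brightest one of Eif4h without a lettered ending.

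**Figure D2:**
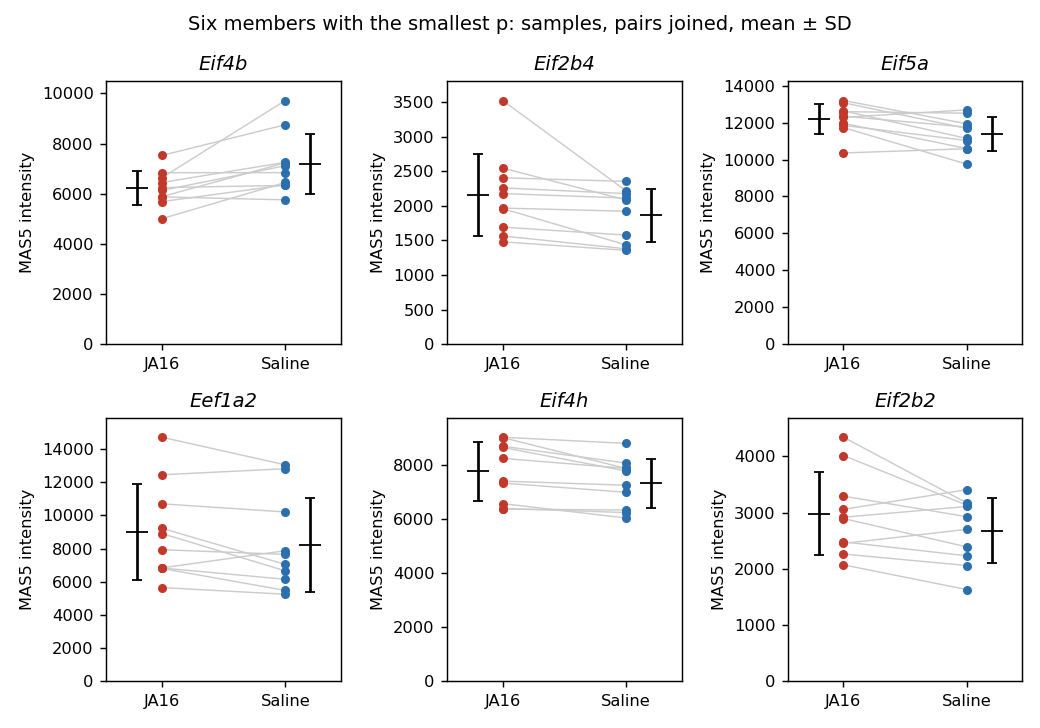
MAS5 intensity (y axis) of the 6 members with the smallest p, with JA16 samples (red, left) and saline samples (blue, right) of each pair joined, and the mean ± SD of each group beside the points. Eif4b is lower in JA16 in 9 of 10 pairs, Eif2b4 and Eif4h are higher in 10 of 10, and in all 6 genes the groups overlap.

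The helicase itself is encoded by the paralogs Eif4a1 and Eif4a2. Eif4a1 had 4031, 5691 and 9607 (lowest, median and highest) in JA16 samples, and 3629, 5124 and 8876 in saline samples, a difference of 0.10 (SE 0.054, limma adjusted p = 0.365) that was 0.055 with quantile normalization. Eif4a2 had 3372, 5235 and 8056 in JA16 samples, against 4187, 5301 and 7368 in saline samples, a difference of -0.083 (SE 0.0803, limma adjusted p = 0.626). The paralogs thus had opposite signs, but the change of Eif4a2 minus that of Eif4a1 was -0.18 (SE 0.11), with Eif4a2 the lower in 6 of 10 pairs. That did not pass an exact two-sided sign-flip permutation test over the 10 pairs (p = 0.146, adjusted p = 0.289 over 2 paralog comparisons).

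The cap-binding protein gene Eif4e was at 0.061 (SE 0.057, limma adjusted p = 0.61) on its brightest probe set. Its next probe set was at 0.16 (SE 0.067) and a dimmer one at -0.14 (SE 0.12), so the probe sets of Eif4e disagreed. Eif4g2 encodes a scaffold related to eIF4G that lacks the site for the cap-binding protein. It had 5445, 8270 and 11130 in JA16 samples, against 7047, 8716 and 10864 in saline samples, with a difference of -0.056 (SE 0.061). Its other probe sets above the filter were at 0.0058, 0.040 and -0.21, so no direction can be given for Eif4g2.

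Of the eIF2B subunits, which form the exchange factor that the stress kinases of eIF2 block, 4 of 5 were higher in JA16 (median 0.15). Eif2b4, the delta subunit, had 1479, 2071 and 3520 in JA16 samples, against 1356, 2002 and 2352 in saline samples. The groups overlapped, and JA16 replicate 8 was the highest sample of all. JA16 was the higher sample in 10 of 10 pairs, with pair differences from 0.031 to 0.67 and a mean of 0.20 (SE 0.072, limma adjusted p = 0.219).

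Eif2b2, the beta subunit, had 2069, 2905 and 4344 in JA16 samples, against 1627, 2815 and 3409 in saline samples. The difference was 0.15 (SE 0.0704, limma adjusted p = 0.307), with JA16 higher in 7 of 10 pairs and its other probe sets at 0.081 and 0.052. Eif2b3, the gamma subunit, was at 0.16 (SE 0.10), but its pairs ran from -0.34 to 0.92. Eif2b1, the alpha subunit, was at 0.057 and Eif2b5, the catalytic epsilon subunit, at -0.0066. Eif2s2, the beta subunit of eIF2, was at -0.11 (SE 0.0942), and all 5 of its probe sets above the filter were lower in JA16. Without pair 1 it was at -0.036, the smallest size with any 1 pair left out.

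Among the scanning and joining factors of the member list, all 3 measured genes were lower in JA16 without passing the test. Outside the member list, Eif1ax was at 0.015 (SE 0.067) and Eif1b at 0.075 (SE 0.059), while the helicase genes Ddx3x and Dhx29 were lower, at -0.19 and -0.22. Eif5 encodes the factor that triggers GTP hydrolysis by eIF2. Its brightest probe set was at -0.14 (SE 0.097, limma adjusted p = 0.463), with 1839, 4260 and 7480 in JA16 samples and 2766, 4508 and 7826 in saline samples. All 5 probe sets of Eif5 were lower in JA16, and the dimmest of them, with a mean intensity of 513, was at -0.38 (SE 0.11). The size of the difference thus depended on the probe set, and without pair 8 that of the brightest was -0.083. Eif1a, with 301 to 1497 in JA16 and 486 to 1659 in saline samples, was at -0.17 (SE 0.12), or -0.095 without pair 7, and Eif5b at -0.093 (SE 0.14).

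Among the members, 8 subunits of eIF3, the scaffold on the small ribosomal subunit, were measured. Of these 8, 6 were higher and 2 lower in JA16, all between -0.096 and 0.091. An unadjusted p under 0.05 was found for 0 of the 8, against 16.2% of all genes. Outside the member list, the subunit genes Eif3k, Eif3l and Eif3m were at 0.028 (SE 0.048), 0.046 (SE 0.053) and 0.049 (SE 0.087). Eif3b, Eif3d, Eif3h, Eif3c, Eif3i and Eif3f were at 0.091, 0.085, 0.079, 0.075, 0.074 and 0.061. With quantile normalization Eif3h, Eif3c, Eif3i and Eif3f were at 0.014, 0.022, 0.0064 and 0.0087, while Eif3b and Eif3d were at 0.099 and 0.087. The lower ones were Eif3e at -0.096 (SE 0.057) and Eif3a, the largest subunit, at -0.054 (SE 0.077). All 3 bright probe sets of Eif3e and all 4 of Eif3a were lower. Both probe sets of Eif3i were higher, as were all 4 of Eif3c.

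**Figure D3:**
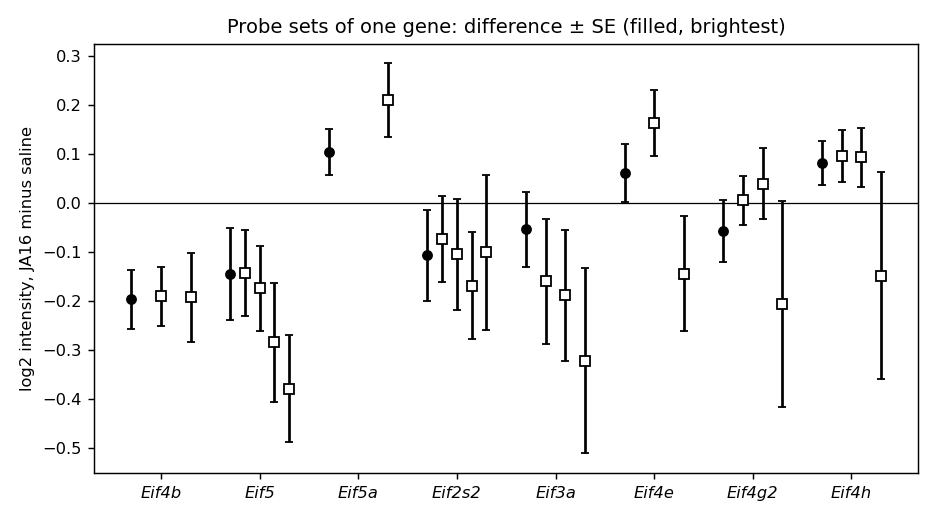
Log2 intensity in JA16 minus saline ± SE (y axis) for each probe set above the filter of 8 factors, from the brightest (filled) to the dimmest. All probe sets of Eif4b, Eif5, Eif2s2 and Eif3a lie below 0 and both of Eif5a above it, while those of Eif4e, Eif4g2 and Eif4h lie on both sides.

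Of the 16 members with several probe sets above the filter, all of a gene's probe sets had the same sign in 13, and Eif4e, Eif4g2 and Eif4h were the exceptions.

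None of the 6 measured elongation factors among the members passed the test, against 0.277% of all genes. An unadjusted p under 0.05 was found for 2 of the 6, against 16.2% of all genes. Eef2, the translocase, had 7786, 10812 and 12985 in JA16 samples and 8218, 10357 and 13995 in saline samples, a difference of -0.014 (SE 0.041), and its 95% interval ran from -0.10 to 0.073. Eef1b2 and Eef1d, of the eEF1B exchange factor, were at 0.047 (SE 0.041) and 0.0198 (SE 0.045). Eif5a encodes a factor with the amino acid hypusine that helps the ribosome through difficult peptide bonds. It had 10357, 12319 and 13198 in JA16 samples, against 9748, 11415 and 12692 in saline samples. JA16 was higher in 8 of 10 pairs, by 0.10 (SE 0.040, limma adjusted p = 0.24), and its other probe set was at 0.21 (SE 0.075). With quantile normalization the difference of Eif5a was 0.032.

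Eef1a1 and Eef1a2 encode forms of eEF1A, and Eef1a2 is the form that replaces Eef1a1 in muscle fibres after birth. Eef1a2 had 5641, 8421 and 14731 in JA16 samples, against 5239, 7347 and 13062 in saline samples. It was higher in JA16 in 8 of 10 pairs, by 0.14 (SE 0.059, limma adjusted p = 0.26), and by 0.091 with quantile normalization. Eef1a1 had 5516, 9263 and 12482 in JA16 samples, against 6121, 8366 and 12303 in saline samples, a difference of -0.0027 (SE 0.073). The change of Eef1a2 minus that of Eef1a1 was 0.15 (SE 0.13), above 0 in 7 of 10 pairs (p = 0.289 by the exact permutation test of sign flips, adjusted p = 0.289). That value hung on single pairs: without pair 1 it was 0.24 (exact permutation adjusted p = 0.0703) and without pair 7 it was 0.083.

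The 9 measured members known as TOP mRNAs had 5 higher and 4 lower in JA16, with a median of 0.0198, and the 20 other members had 12 higher and 8 lower, with a median of 0.068. Eif4b and Eif3e of the TOP members were lower, while Eef1a2, Eif3h and Eif3f were higher. Ribosomal protein genes, which are TOP mRNAs as well, were higher in 41 of 42 measured, with a median of 0.079. These counts were not tested against each other.

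Members differed in how closely they followed each other. The mean correlation of pair differences between members was 0.15 over the 10 pairs, beside 0.0032 over all genes and 0.28 for the ribosomal protein genes, as a description of values that share arrays and scaling. Eef2 followed the mean of the other members most closely (r = 0.94 over 10 pairs), then Eif3h (0.82), Eif4b and Eif3c (0.78 each), while Eef1a1 ran against it (-0.63). The correlation with the mean of all genes was -0.69 for Eef2, -0.93 for Eif3h, -0.41 for Eif4b, -0.62 for Eif3c and 0.74 for Eef1a1, and the part of an array-wide shift in these values was not tested. By pair, the median member difference ran from -0.094 in pair 1, where 7 of 29 members were higher in JA16, to 0.18 in pair 7, where 26 were. The lowest JA16 sample was replicate 5 for 14 of 29 members (14.9% of all genes), and the highest was replicate 8 for 12 (21.4% of all genes). Saline replicate 7 was the lowest saline sample for 10 (20.3% of all genes) and had the highest array median, 77.1. Without pair 7 the members' median was 0.042. The part of the array median in these values was not tested.

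In 24 of 29 members the log2 difference was larger in size between the low-ratio and high-ratio array sets than between treatments. This count has no share over all genes beside it. The difference between sets is taken between pairs and that between treatments within pairs, so their spreads are unlike and the count says little about the members. On pair means, 13 of 29 members differed between the sets (limma adjusted p under 0.05), against 34.9% of all genes, 8 higher and 5 lower in the low-ratio set. This comparison was added after the values were seen. Eif3d, an eIF3 subunit that can itself bind caps, had 2208 to 4295 in the low-ratio set and 734 to 1278 in the high-ratio set, a log2 difference of 1.70 (SE 0.19, limma adjusted p = 0.000103). The sets did not overlap for Eif3d.

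Eif4a1 was also higher in the low-ratio set, by 0.80 (SE 0.13, limma adjusted p = 0.00061), and Eef1a2 by 0.71 (SE 0.15, limma adjusted p = 0.00432). Eif3c, another eIF3 subunit, had 4535 to 7665 in the low-ratio set and 8631 to 12659 in the high-ratio set (log2 difference -0.74, SE 0.12, limma adjusted p = 0.00095). Eif4e was lower by -0.45 (SE 0.11, limma adjusted p = 0.0106). Eif3d, Eif4a1, Eif3c and Eif4e were the 4 members without overlap between the sets, against 11.6% of all genes. The sets were defined by the beta-actin ratio, so it differs between them by design, and its part in these levels was not tested. Scaling mattered for the count and the direction. With quantile normalization 16 members were called, 13 higher and 3 lower, against 34% of all genes. With centred array medians 9 were called, 1 higher and 8 lower, against 38.1% of all genes. Without lettered endings 10 of 21 were called, 8 higher and 2 lower, against 32.3% of all genes. The median over all genes was -0.11 with quantile normalization and -0.33 with centred medians, beside -0.012 in the values as deposited.

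**Figure D4:**
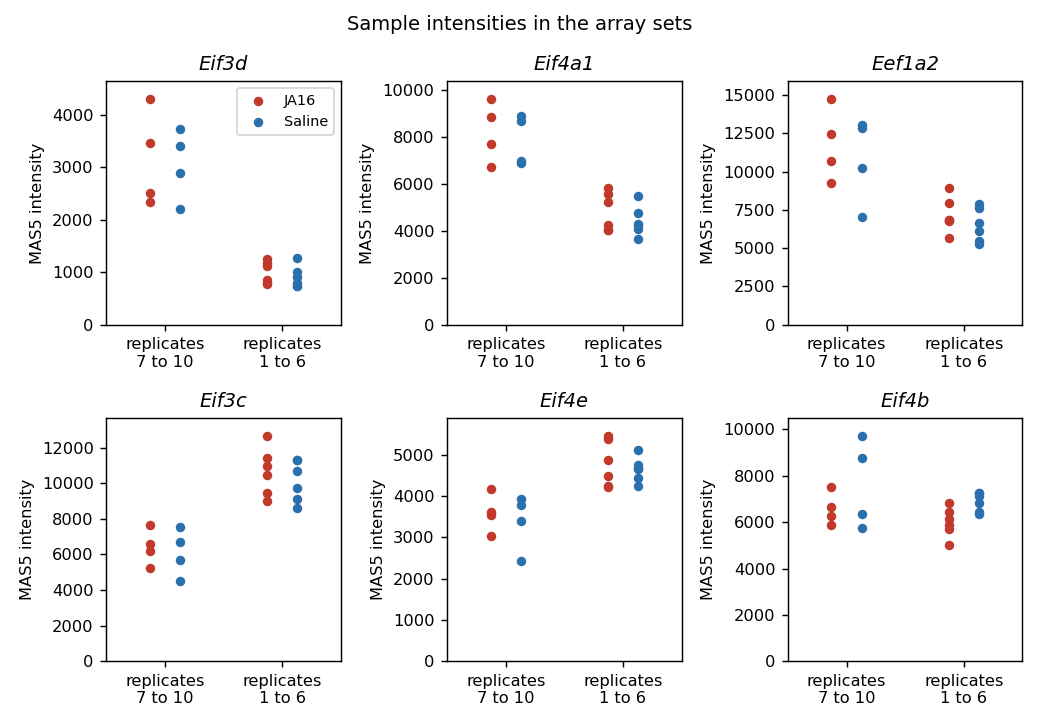
MAS5 intensity (y axis) of 6 factors in the low-ratio set (replicates 7 to 10, left) and the high-ratio set (replicates 1 to 6, right), with JA16 samples in red and saline samples in blue. Eif3d and Eif4a1 are higher and Eif3c and Eif4e lower in the low-ratio set without overlap, in both treatments, while the Eif4b ranges overlap.

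The JA16 difference itself was alike in sign between the array sets for 24 of 29 members, against 65.0% of all genes. In a test of the difference between sets (limma interaction term with the block), 0 of 29 members passed and 0 had an unadjusted p under 0.05, against 0% and 2.68% of all genes. The smallest p was 0.211. For Eif2b4 the difference was 0.23 in the low-ratio set and 0.17 in the high-ratio set, for Eif5a 0.079 and 0.12 in that order, and for Eef1a2 0.15 and 0.14.

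Other genes of translation control were also examined, and 65 of 72 listed were measured. None passed the test (0 in limma with or without the block), and 11 had an unadjusted p under 0.05, which at 16.9% of the 65 is near the 16.2% of all genes. Of the 65, 41 were higher and 24 lower, with a median of 0.028, beside 45.8% higher and a median of -0.016 over all genes. The smallest p was that of Pabpc1, the poly(A)-binding protein that joins the tail of the mRNA to the cap complex. It had 2430, 2661 and 4085 in JA16 samples, against 1836, 2459 and 2922 in saline samples, and was higher in JA16 in 8 of 10 pairs, by 0.27 (SE 0.071, limma adjusted p = 0.133). On its brightest probe set without a lettered ending it was at -0.12 (SE 0.26), so no direction can be given for Pabpc1 on that probe set. Eif4e2, a cap-binding relative of eIF4E, was at 0.16 (SE 0.064), and at -0.15 (SE 0.068) on such a probe set. For Eif4e2 the direction thus depended on the probe set.

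Of the eIF2 stress branch, 2 of 7 kinases and phosphatases and 1 of 7 induced genes had an unadjusted p under 0.05, against 16.2% of all genes. These genes were lower in JA16, a direction seen at that limit for 8.76% of all genes. Chac1, a target of the stress factor ATF4, had 715, 2012 and 3889 in JA16 samples and 1217, 2683 and 4859 in saline samples, a difference of -0.68 (SE 0.27, limma adjusted p = 0.253), lower in 7 of 10 pairs. Eif2ak3, the eIF2 kinase of the endoplasmic reticulum, was at -0.41 (SE 0.17), lower in 8 of 10 pairs, with intensities of 89.7 to 251 in JA16 and 110 to 411 in saline samples. Ppp1r15b, which guides the phosphatase of eIF2, was at -0.14 (SE 0.061), lower in 9 of 10 pairs. Of the 7 genes listed as induced by eIF2 phosphorylation, 4 were higher and 3 lower, and of the 7 kinases and phosphatases 2 were higher and 5 lower. Atf4 itself was higher in 7 of 10 pairs, by 0.096 (SE 0.050).

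The RNA helicases Ddx3x and Dhx29, which help the small subunit along structured leaders, were at -0.19 (SE 0.073) and -0.22 (SE 0.093), and Etf1, the release factor that ends translation, was at -0.21 (SE 0.0905). Eef1e1, which sits in the complex of aminoacyl-tRNA synthetases, was at 0.21 (SE 0.098). All 8 measured partners and modifiers of the elongation factors were higher in JA16 (median 0.12), against 45.8% of all genes. Of these 8, 1 had an unadjusted p under 0.05, against 16.2% of all genes. Of the 6 factors of mitochondrial translation, 5 were higher. Tufm, which delivers tRNAs to the mitochondrial ribosome, was at 0.22 (SE 0.078), and the initiation factor Mtif3 at 0.19 (SE 0.0703), each higher in 8 of 10 pairs.

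**Figure D5:**
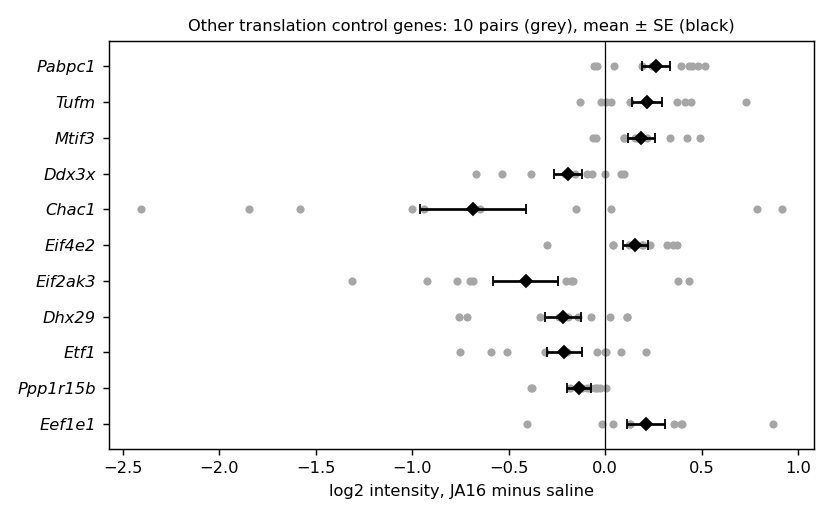
Log2 intensity in JA16 minus saline (x axis) for the 11 other translation control genes with an unadjusted p under 0.05. Grey points are the 10 pairs and black diamonds the mean with its SE; Chac1 has the widest spread and the largest mean difference (-0.68), and none passed the adjusted threshold.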

How the data were processed

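The deposited intensities, 1 per probe set and array on a linear scale, were made with MAS5, per the submitters' processing notes; its version and scaling target are not given in the sources used. Trimming 2% of probe sets at either end gave all 20 arrays a common mean. RNA was amplified and labelled with NuGEN kits, per the labels' protocols.

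Of 45101 probe sets, 34945 had 1 gene in the platform annotation, 932 had several and 9160 none, and 64 were controls. Gene identifiers of 34741 single-gene probe sets matched a RefSeq table (GRCm38.p6), and 0 symbols changed. Before log2, 5 intensities that were not above 0 became 0.1. A gene was kept if its brightest probe set reached a mean log2 of 5.65, the median over probe sets. JA16 was compared with saline in limma 3.58.1 (R 4.3.3, lmFit and eBayes with an intensity trend), with the replicate number as a block and Benjamini-Hochberg adjustment over 11200 genes at a threshold of 0.05. Standard errors of single probe sets come from the same fit over all single-gene probe sets. Python 3.11.15, pandas 2.3.3, numpy 2.4.6 and matplotlib 3.10.9 were used, and the fits were checked on simulated data.

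The labels number the samples 1 to 10 in both groups. Across genes, the deviations from the group mean of 2 samples with 1 number correlated at 0.377 to 0.786 in all 10 pairs (median -0.11 between other numbers). All were above the limit of 0.1, and samples were treated as paired. Same-numbered samples also share an array set, while other numbers mix the sets, so these correlations do not show pairing within a set. The comparison was defined on same-numbered pairs, so the blocked fit is the main one. The array sets were split at the widest gap in the beta-actin ratio. The members and lists were chosen with earlier results of these data known. By rule, all members are accounted for, values by group are given for the 6 with the smallest p and for paralogs, and other genes are named at an unadjusted p under 0.05. Values by group for Eef2, Eif5, Eif1a and the genes of the array sets were chosen after the values were seen. So was the naming of Eif3k, Eif3l, Eif3m, Eif1ax, Eif1b and Atf4. The comparison of Eif4g2 with Eif4g1 was not made, since Eif4g1 had no single-gene probe set. The alternatives were no block, other normalizations, offsets, filters, probe set rules and variance priors, each array set alone, the beta-actin ratio as covariate, and each pair left out; the level comparison between array sets and its alternatives were added after seeing the data. The number of arrays limits the precision.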

Additional observations from a re-analysis of the deposited data

Results flagged for a closer look

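A sample far from the rest of its group was looked for in 80 groups of 10 samples (40 genes, Dixon's test), where chance flags about 1 in 20. It was found in 2. Eif5a in JA16 replicate 10 had an intensity of 10357, against 11731 in the next lowest JA16 sample. Eif3i in saline replicate 7 had an intensity of 8820, against 12214 in the next lowest saline sample. Saline replicate 7 was also the lowest saline sample for Eif5a, at 9748. With any 1 pair left out, the difference between JA16 and saline was 0.057 to 0.0986 for Eif3i and 0.085 to 0.12 for Eif5a.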

How the results depend on the processing

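The count of members called was 0 in limma under every alternative run, and so were the count of other translation control genes called and the count of members differing in effect between array sets. With no replicate block 4 of all genes passed and 1 member had an unadjusted p under 0.05, against 31 and 6 with the block, and the paralog differences did not pass in either form (adjusted p = 0.406 without the block). Of all genes, 10 passed with centred array medians, 15 with means over probe sets, 0 in replicates 1 to 6 only, 0 in replicates 7 to 10 only, 1 with the beta-actin covariate and 9 without the intensity trend, and with 1 pair left out 10 to 51 passed. Members with an unadjusted p under 0.05 were 3 with centred medians and 2 without lettered endings. In replicates 1 to 6 only they were 2, and in replicates 7 to 10 only 0. They were 2 with the beta-actin covariate, 2 without the trend, and 3 to 7 with 1 pair left out (3 without pair 4, 6 or 7). The members' median was -0.0027 without lettered endings, where 21 members were left. Members that differed in level between array sets were 13 in the values as deposited and 9 with centred medians.

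Signs turned for the genes that follow, none of which passed. With quantile normalization Eif2b5 was at 0.0019, Eef1b2 at -0.027 and Eef1d at -0.053. With centred medians Eif2b5 was at 0.063, Eif3a at 0.015, Eif4g2 at 0.013, Eef1a1 at 0.067 and Eef2 at 0.055. With means over probe sets Eif3e was at 0.075, Eif3h at -0.72 and Eif4g2 at 0.065, where probe sets with mean intensities under 10 enter for each of these genes. Without lettered endings Eif4h was at -0.15, Pabpc1 at -0.12 and Eif4e2 at -0.15, against 0.27 for Pabpc1 and 0.16 for Eif4e2 on their brightest probe sets. With the beta-actin covariate Eif3d was at -0.0013, Eif4g2 at 0.0198 and Eif5b at 0.082. In replicates 7 to 10 only Eif2s2 was at 0.041, Eif2b5 at 0.039, Eif3a at 0.0047 and Eif5b at 0.00058, and in replicates 1 to 6 only Eef1a1 was at 0.017. With 1 pair left out Eif2b5 ran from -0.041 to 0.023, Eef1a1 from -0.062 to 0.033 and Eef1d from -0.0045 to 0.044. The causes were not tested.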
